A study of Mus musculus with 3 samples.

Results

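Transcripts that the GENCODE mouse annotation classes as nonsense-mediated decay (NMD) targets were examined in chromatin RNA of macrophages. Members were the transcripts whose record in the deposited transcript tables ends in that class, and they numbered 7186 of 141767 annotated transcripts (5.07%). Of these, 7091 lay in 4491 genes that also have a protein-coding transcript, which is 20.5% of the 21901 such genes. The main measure was a share, the summed TPM of a gene's NMD-class transcripts as a percent of the summed TPM of all its transcripts, where TPM is a level scaled for transcript length and for the library's total. Each library had 2 transcript tables made by different quantification, and both were used throughout. The first layout, which gives expected counts, supplied the main values, and the second, which gives estimated counts, was set beside it.

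The RNA was total RNA of the chromatin fraction after depletion of ribosomal RNA, from primary bone marrow-derived macrophages of strain C57BL/6J. All cells had met Lipid A, a TLR4 ligand from the bacterial outer membrane, at 100 ng/ml for 12 h, spent 12 h after it was washed away, and met it again at 100 ng/ml for 20 min. There was 1 group of 3 libraries, replicates 1, 2 and 3, made from 1000, 250 and 500 ng of RNA. Their labels carry the same donor entry and record neither sex nor age, so the spread between libraries may be technical. The amount of RNA used and the replicate number cannot be told apart. With 1 group no contrast was possible, so no test was made and every value below is a level or a share in these restimulated cells.

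NMD is a surveillance pathway that destroys messenger RNAs on which a ribosome stops well upstream of an exon junction. The exon junction complex left there by splicing, the helicase UPF1 and its kinase SMG1 mark such messages for decay, and the annotation gives the class to transcripts whose stop codon lies upstream of a splice junction in this way. Many genes for splicing factors make such transcripts through an exon that carries a stop codon (a poison exon) or through a spliced 3′ untranslated region, a known way of limiting their own output. Decay takes place during translation in the cytoplasm, whereas chromatin RNA is mostly still being made or processed. RNA of other cell fractions was not analysed here, so no value below measures decay.

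The sequences that set these transcripts apart are short stretches of open reading frame ending in the early stop codon. In the first set, the stop lies in an extra exon, an internal exon that overlaps no exon of the gene's protein-coding transcripts. Each sequence runs 5′ to 3′ on the strand of the gene from the first base of that exon to the stop codon, which is in capitals. The genes shown encode the splicing factors Tra2a, Tra2b, Srsf3, Srsf7, Rbm39 and Srrm2, and the antiviral protein viperin (Rsad2). They are shown because the results below turn on how differently the NMD-class transcripts with these exons were represented. Transcripts of classes other than protein-coding and NMD were not examined for the same exons. Levels of the exons themselves were therefore not measured. Positions are from the mm10 build (GENCODE M21) and are chr6:49252965-49253108 on the minus strand for Tra2a-202, chr16:22259181-22259261 (minus) for Tra2b-206, chr17:29039454-29039487 (plus) for Srsf3-201 and chr17:80205054-80205081 (minus) for Srsf7-203. For the others they are chr2:156174126-156174168 (minus) for Rbm39-223, chr17:23811817-23811859 (plus) for Srrm2-203 and chr12:26452355-26452407 (minus) for Rsad2-202.
Tra2a-202: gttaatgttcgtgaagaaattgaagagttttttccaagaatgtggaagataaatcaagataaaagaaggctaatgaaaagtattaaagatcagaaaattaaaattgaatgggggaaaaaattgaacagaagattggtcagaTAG
Tra2b-206: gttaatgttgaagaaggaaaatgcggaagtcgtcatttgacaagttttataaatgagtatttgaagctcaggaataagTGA
Srsf3-201: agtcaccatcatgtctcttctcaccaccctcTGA
Srsf7-203: gtttcttcgtttgagtcagtcgcctTGA
Rbm39-223: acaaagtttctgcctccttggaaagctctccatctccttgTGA
Srrm2-203: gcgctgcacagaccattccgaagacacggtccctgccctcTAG
Rsad2-202: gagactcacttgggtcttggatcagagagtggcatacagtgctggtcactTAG

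In the second set, the reading frame runs from an exon into an intron that the transcript retains. The last 24 coding bases before the intron are in lower case, the first bases of the intron (GT, the splice donor) and the stop codon are in capitals. These 3 are shown because such transcripts were at 1 TPM or more more often than the class as a whole, as given further on. Ddx5-208 lies at chr11:106783954-106783982 (minus), Psmc5-202 at chr11:106262479-106262580 (plus) and Trafd1-208 at chr5:121375760-121375819 (minus).
Ddx5-208: ccgatgtggcctccagagggctagGTTAG
Psmc5-202: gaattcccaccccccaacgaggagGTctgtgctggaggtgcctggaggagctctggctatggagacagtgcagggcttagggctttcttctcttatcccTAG
Trafd1-208: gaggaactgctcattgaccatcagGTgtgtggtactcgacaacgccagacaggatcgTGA

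The NMD class was a small and steady part of the TPM of genes with a protein-coding transcript. These genes together held 338357, 244557 and 299199 TPM in replicates 1, 2 and 3 of the first layout. The shares below are of that total and not of all chromatin RNA. In these genes the NMD class held 3.94, 4.24 and 3.95% of summed TPM in replicates 1, 2 and 3 of the first layout (4.05 ± 0.17%, SD, n = 3). In the second layout it held 5.14, 5.22 and 4.92% (5.09 ± 0.16%), so the layouts did not overlap. Protein-coding transcripts held 48.3 ± 1.03% in the first layout, retained-intron transcripts 38.7 ± 0.86% and processed transcripts, which have no annotated reading frame, 8.92 ± 0.15%. The corresponding second-layout means were 44.2, 34.5 and 16.2%. Within the genes that have both an NMD-class and a protein-coding transcript, the NMD share was 10 ± 0.26% in the first layout and 13.0 ± 0.31% in the second.

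**Figure D1:**
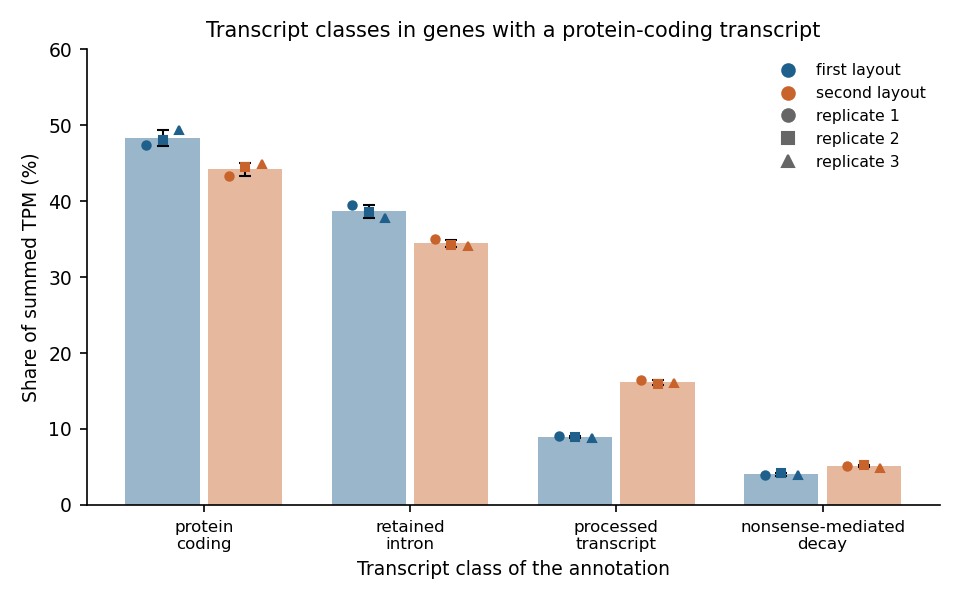
Share of summed TPM (%) held by 4 transcript classes in genes with a protein-coding transcript. Bars are means of 3 libraries, error bars are SD, points are libraries and colours are layouts. The nonsense-mediated decay class lies near 4% in the first layout and 5% in the second, far below the retained-intron class.

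Few of the annotated NMD-class transcripts were abundant. Of the 7091, 1160 reached 1 TPM in all 3 libraries in the first layout, 2254 in the second and 1029 in both. A further 1646 were listed at 0 in every library of both layouts. The first layout also gives an interval for each transcript's TPM, and its lower bound was at least 1 in all libraries for 706 transcripts, but the level of confidence of this interval is not stated in the file headers. For gene shares, a set of 3137 genes was used whose summed TPM was at least 1 in every library and both layouts, and the other 1354 genes fell below this floor. The set held 5180 NMD-class transcripts, with 1 such transcript in 1930 genes and at most 18 in a gene.

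The median gene share was 4.78% in the first layout, with quartiles of 0.651 and 13.7%, and 9.38% in the second, with quartiles of 2.65 and 20.9%. A share of at least 10% in all 3 libraries was found for 741 genes in the first layout (23.6%), for 1239 in the second (39.5%) and for 607 in both (19.3%). A share of at least 50% in all libraries, meaning that NMD-class transcripts outweighed all others, was found for 65 genes in the first layout (2.07%), 115 in the second (3.67%) and 37 in both (1.18%). At the other end, 573 genes were listed at a share of 0 in every library of the first layout and 253 in the second. These percentages are the background against which the gene lists below are read. Of the 3137 genes, 1988 overlap another gene on either strand, and the strand used in counting is not stated, so their shares may hold reads of the neighbour.

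The 2 layouts ordered genes only in part alike. Across the 3137 genes the Pearson correlation of shares was 0.657 and Spearman's 0.623, from the same libraries, and genes are not independent replicates. The share was higher in the second layout in 1914 genes and in the first in 1009, with a median difference of 1.38 percentage points. Of genes at 10% or more in the first layout 81.9% were also so in the second, and of those in the second 49.0% were so in the first. Transcript length differed between the NMD-class TPM of the layouts: the 1297 shortest of the set's 5180 NMD-class transcripts (203 to 676 bases) held 10.2 ± 0.45% of their TPM in the first layout and 27.0 ± 1.77% in the second. The 1295 longest (2453 to 15399 bases) held 48.8 ± 1.95 and 30.7 ± 1.23%. The effective length used for scaling was not shorter in the second layout, with a median ratio of 1.10 (second to first) over the 1297 shortest, so the counts given to them differed too.

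**Figure D2:**
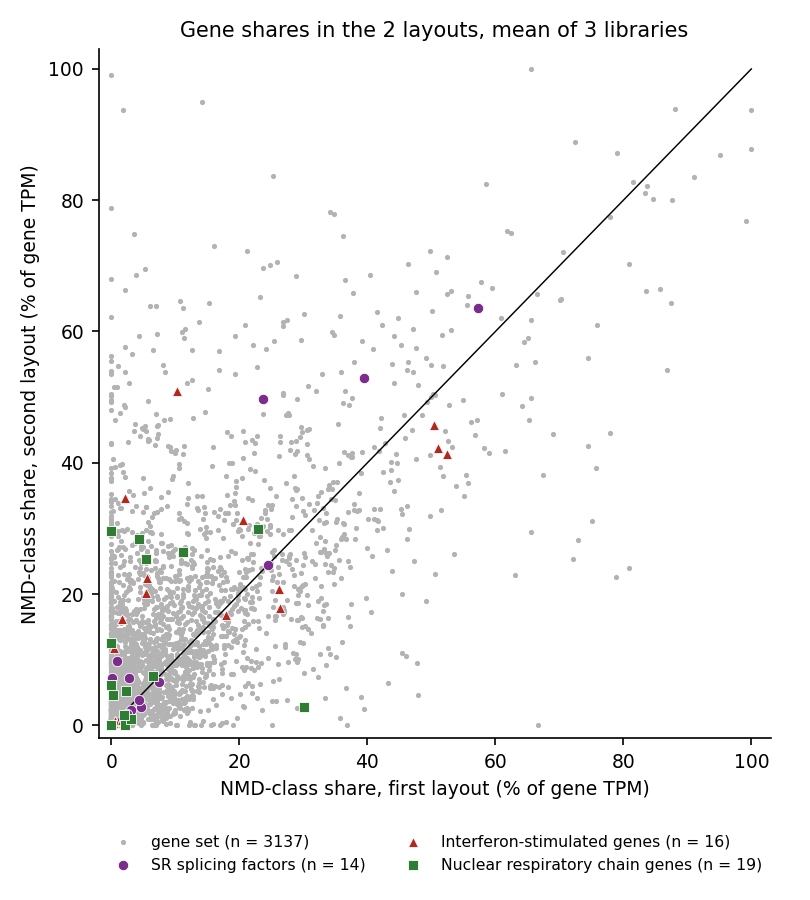
NMD-class share of each of 3137 genes (% of gene TPM, mean of 3 libraries) in the first layout (x axis) and the second (y axis), with 3 gene lists in colour and a line of equal shares. Many genes near 0 in the first layout spread upward in the second, and the interferon-stimulated genes Mx1, Oas1g and Ifi35 lie below the line but above 40% in both.

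A small number of transcripts held much of the NMD-class TPM. The 15 highest, which come from 13 genes, held 22.3% of all NMD-class TPM in the first layout and 15% in the second. Mx1, an interferon-induced antiviral GTPase gene at chr16:97447035-97462907 that is known to be defective in C57BL/6 mice through loss of coding exons, led the list. Its NMD-class transcripts took 9.38, 10.3 and 5.82% of all NMD-class TPM in replicates 1, 2 and 3 of the first layout, and 5.34, 5.77 and 3.18% in the second. Without Mx1 the pooled share in genes with a protein-coding transcript was 3.72% in place of 4.05%.

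The 3 NMD-class transcripts of Mx1 all lack an exon of a protein-coding transcript, and the layouts divided the reads among them differently. Mx1-205 had 826, 757 and 465 TPM in the first layout but 19.2, 66.5 and 33.4 TPM in the second. Mx1-203 had 92.0, 68.5 and 45.0 TPM in the first layout and 638, 472 and 307 TPM in the second. Mx1-210 was high in both, at 251 ± 76.8 and 479 ± 167 TPM. The sum over the 3 depended less on the layout, since the gene's NMD share was 45.2, 57.8 and 54.3% in the first layout and 35.2, 45.9 and 42.8% in the second. Reads of the related gene Mx2 could be shared with Mx1, so these values are uncertain to that extent.

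Ddx5, which encodes an RNA helicase that takes part in transcription and splicing, had the next most abundant transcript. Ddx5-208 retains an intron of 1265 bases, and its stop codon follows directly on the splice donor in the sequence printed above. It had 519, 358 and 455 TPM in the first layout and 389, 291 and 351 TPM in the second, so it was high in every library of both. The NMD share of Ddx5 was 56.2 ± 1.39% in the first layout and 46.2 ± 2.02% in the second. Ddx5 overlaps another gene.

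Among other interferon-induced genes, Samhd1 encodes a phosphohydrolase that lowers nucleotide pools, Oasl2 and Oas1g are of the oligoadenylate synthetase family, and Rsad2 encodes viperin. Samhd1-204 retains an intron of 1817 bases. This transcript had 257, 194 and 189 TPM in the first layout and 201, 153 and 147 TPM in the second. Oasl2-205 had 187, 93.1 and 147 TPM in the first layout and 109 ± 37.4 TPM in the second. Rsad2-202, which carries the extra exon printed above, ranged more widely, at 279, 49.0 and 75.5 TPM, and replicate 1 was also highest in the second layout (508, 137 and 161 TPM). Oas1g-203 had 93.4, 47.2 and 71.0 TPM, and its gene share was 51.0 ± 5.27% in the first layout and 42.3 ± 2.29% in the second. The oligoadenylate synthetase genes are near-identical in places, so Oas1g is uncertain. In the first layout each of these 4 transcripts was lower in replicate 2 than in replicate 1, but of the gene shares only that of Rsad2 was (28.9, 13.5 and 19.2%). The summed TPM of all genes with a protein-coding transcript was also lower in replicate 2 (244557) than in replicate 1 (338357). A lower TPM in replicate 2 is therefore not particular to these genes.

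Other leaders were Lilr4b-204, from a leukocyte immunoglobulin-like receptor gene, at 194, 27.9 and 130 TPM, and Trafd1-208, from a gene of a negative regulator of innate signalling, at 124, 88.9 and 86.4 TPM. Lilr4b has close paralogs that could share its reads. Trafd1-208 retains 2 introns, and its frame reads into intron sequence as printed above. Srrm2-203, from the gene of a large splicing coactivator, had 95.5, 106 and 137 TPM. It is a model of 494 bases marked incomplete in the annotation, and these levels rest on 308, 690 and 488 expected counts. Oasl2-205, Trafd1-208 and Paxbp1-201 are marked incomplete too, as are 1597 of the 5180 NMD-class transcripts of the gene set (30.8%). The gene share of Srrm2 was 24.4 ± 3.57% in the first layout and 24.4 ± 2.17% in the second, and Srrm2 overlaps another gene. Rbm39-223, from the gene of a splicing factor related to U2AF, had 70.3, 69.4 and 67.6 TPM in the first layout, the narrowest range of the 15, and 107 ± 6.73 TPM in the second. Gpnmb-202, a model of 365 bases from a macrophage glycoprotein gene, depended most on the layout after Mx1-205 and Mx1-203, at 72.4 ± 51.0 against 309 ± 183 TPM. The remaining 2 of the 15, Zup1-207 and Paxbp1-201, had first-layout means of 81.4 and 78.1 TPM.

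**Figure D3:**
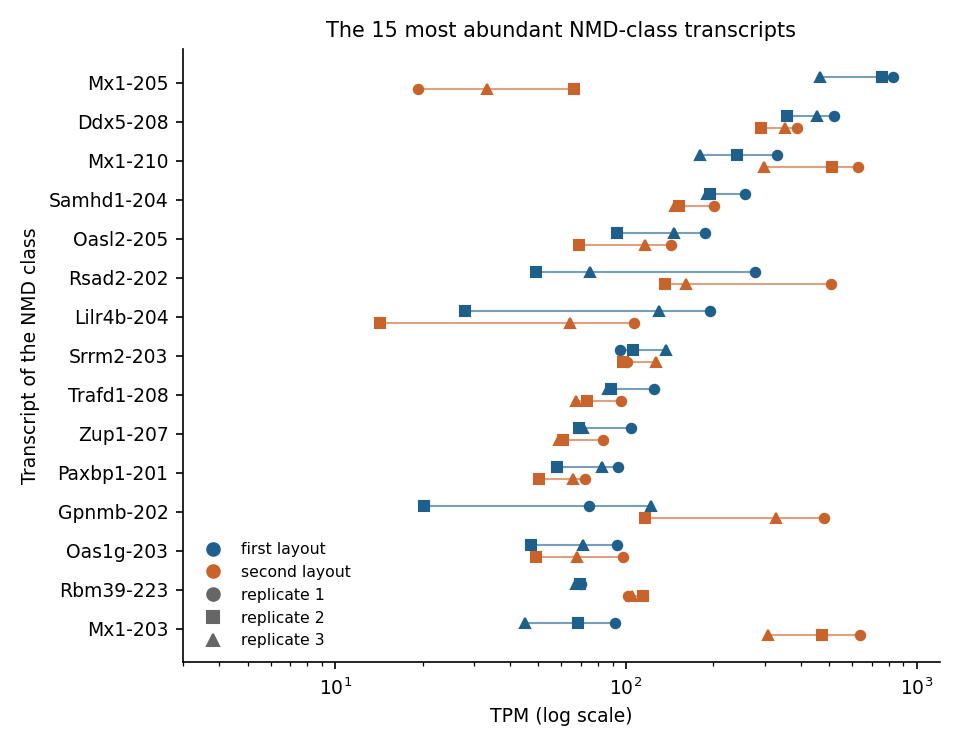
TPM (log axis) of the 15 most abundant NMD-class transcripts by first-layout mean, with 1 point per library and colours for layouts. Mx1-205 and Mx1-203 change places between layouts, while Ddx5-208, Samhd1-204 and Srrm2-203 stay within a narrow band.

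Genes in which NMD-class transcripts outweighed all others were mostly of low or middling level. Genes at 5 TPM or more in every library and layout were ranked by the lower of their layout means. Fbxl4, which encodes an F-box protein of mitochondrial quality control, led with shares of 95.0, 90.3 and 100% in the first layout and 89.5, 86.9 and 84.2% in the second, at a summed gene level of 7.49 ± 1.03 TPM. Hnrnpa1, the gene of an abundant splicing repressor, had 85.4, 97.5 and 90.2% in the first layout and 79.5, 89.3 and 81.9% in the second, at 84.3 ± 4.40 TPM. Both its expressed NMD-class transcripts, Hnrnpa1-203 and Hnrnpa1-204, keep the stop codon of a coding transcript and are classed by splicing downstream of it. Processed pseudogenes of Hnrnpa1 are known and could take reads from its coding transcripts, and their part in these shares was not tested.

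Psmc5, which encodes an ATPase subunit of the proteasome, had 84.4, 91.2 and 75.7% in the first layout and 82.2 ± 5.38% in the second. All of this came from Psmc5-202, with the retained intron printed above, at 9.49, 9.52 and 8.57 TPM. Polg2, for the accessory subunit of the mitochondrial DNA polymerase, had 84.6 ± 5.76 and 80.2 ± 4.90%. Further down, Khnyn, a cofactor of the antiviral protein ZAP, had 70.3 ± 3.35 and 65.0 ± 3.71%, and Rbmx, the X-linked gene of hnRNP G, 60.9 ± 2.90 and 62.0 ± 1.64% through an extra exon with a stop. Selenoo, Gtf2ird2, Trmt11, Tmem208, Chmp4c, Cd300c2, Ctla2b and Gm45799 had first-layout shares of 59.4 to 87.4% and second-layout shares of 61.0 to 77.5%. Cd300c2 and Ctla2b belong to families of near-identical genes and are uncertain. Evi2 was the least steady of these 15, at 59.6, 38.9 and 96.6%. Psmc5, Polg2, Fbxl4 and most of the others overlap another gene.

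Splicing factors of the SR family activate exons through arginine-serine domains, and their poison exons are among the best known NMD-class features. Of 17 genes listed, 14 were in the gene set, and 4 of the 14 had at least 10% in all libraries of the first layout, the second layout and both. These 4 are 28.6% of the 14, beside 23.6, 39.5 and 19.3% of the gene set. The median share of the 14 was 3.67% in the first layout and 6.92% in the second, below the medians of the gene set (4.78 and 9.38%). The same 4 genes made up the count in both layouts. Scaf11 had 57.0, 58.9 and 55.8% in the first layout and 63.9, 65.0 and 61.9% in the second. Tra2a had 41.0, 38.4 and 39.0% in the first and 52.5, 53.9 and 52.1% in the second. Srsf4 had 23.7 ± 3.17 and 49.8 ± 2.43%, and the fourth was Srrm2, mainly through the 494-base model Srrm2-203. Tra2a, Srsf4 and Srrm2 overlap another gene, while Scaf11 does not.

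Tra2a and Tra2b are paralogs that both carry a stop in an extra exon whose sequence begins with the same bases, yet they stood far apart. Tra2a-202 had 44.7, 22.8 and 39.9 TPM in the first layout, and the rest of that gene's TPM lay mainly in retained-intron transcripts (55.2%) with 5.29% in protein-coding ones. Tra2b-206 had 2.42, 2.21 and 3.60 TPM, and the share of all NMD-class transcripts of Tra2b was 1.80, 2.50 and 2.99% in the first layout and 1.74 ± 0.34% in the second. Tra2b was at a similar gene level, 123 ± 29.4 TPM against 90.2 ± 27.0 TPM for Tra2a. The 2 genes' shares did not overlap in any library or layout. Tra2a overlaps another gene and Tra2b does not, so the values of Tra2a may hold reads of the neighbour.

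Srsf3 and Srsf7, whose leading NMD-class transcripts also end in an extra exon, had low shares in both layouts. Srsf3 had 5.11, 3.44 and 5.38% in the first layout and 2.73 ± 0.72% in the second, with Srsf3-201 at 4.92 ± 1.79 TPM in a gene of 104 ± 20.0 TPM. Srsf7 had 3.35, 2.47 and 3.21% in the first layout and 2.41 ± 0.20% in the second, with Srsf7-203 at 1.43 ± 0.38 TPM. In both genes most TPM lay in retained-intron transcripts, at 78.9% for Srsf3 and 77.7% for Srsf7. Srsf6 and Srsf2, whose leading NMD-class transcripts keep the coding stop, had 4.34 ± 1.27 and 1.58 ± 1.18% in the first layout, and Srsf5, through another splice site, had 0.22 ± 0.25%. Srsf1, through a skipped exon, differed between libraries, at 11.5, 4.58 and 6.20%, with replicate 1 highest in both layouts. Srsf11 and Srrm1 were below 1% in the first layout and at 9.85 ± 3.19 and 7.23 ± 1.44% in the second, and Srsf9 was at 2.76 ± 0.48 and 7.21 ± 2.34%, so their position depends on the layout.

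Kinases that phosphorylate SR proteins showed a similar split. Of 12 listed, 7 were in the gene set, and 2 had at least 10% in all libraries of the first layout, 4 of the second and 2 of both. In the gene set 23.6, 39.5 and 19.3% of genes did so. Prpf4b had 34.9, 40.0 and 37.4% in the first layout and 40.8 ± 2.61% in the second, with Prpf4b-208, which keeps the coding stop codon, at 45.5, 42.1 and 49.0 TPM in the first layout. Prpf4b overlaps another gene. Clk2 had 21.2, 32.6 and 26.4% in the first layout and 21.9 ± 5.69% in the second, all from Clk2-204, which skips an exon. Clk1, Clk3 and Srpk1 lay at 3.93 ± 0.45, 4.76 ± 3.15 and 3.33 ± 2.12%. Clk4 and Srpk2 were under 10% in the first layout (8.0 and 8.50%) and above it in the second (26.5 and 15%).

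**Figure D4:**
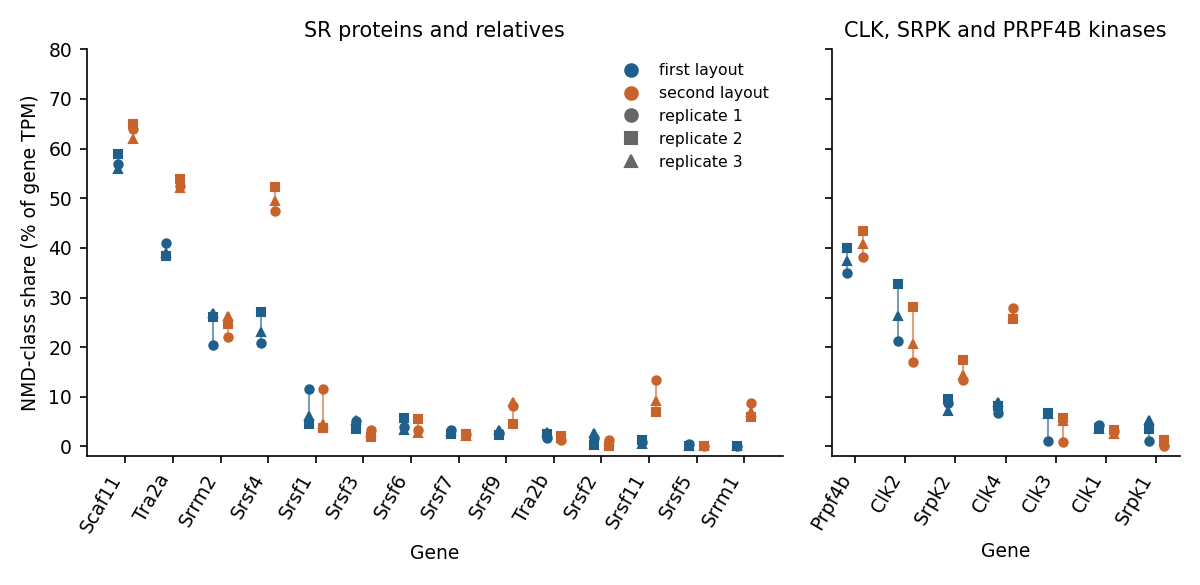
NMD-class share (% of gene TPM) of 14 SR-family genes and 7 kinase genes in each library, with colours for layouts. Scaf11, Tra2a, Srrm2, Srsf4, Prpf4b and Clk2 lie above 15% in every library of both layouts, while Srsf3, Srsf7, Tra2b, Srsf2 and Srsf5 lie below 6%.

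Few genes of the NMD machinery could be read, and their position depended on the layout. Of 22 factors listed, 6 have an NMD-class transcript, beside 20.5% of genes with a protein-coding transcript, and 5 were in the gene set. None of the 5 had 10% in all libraries of the first layout or of both, against 3 in the second. In the gene set 23.6% of genes did so in the first layout, 19.3% in both and 39.5% in the second. The median share of the 5 was 2.54% in the first layout and 13.8% in the second, beside 4.78 and 9.38% for the gene set. Smg1, the kinase of UPF1, was highest and varied most, at 4.94, 21 and 9.74% in the first layout and 14.8, 29.9 and 18.7% in the second, with replicate 2 highest in both. Its transcript Smg1-204 skips an exon and places the stop 10397 bases before the last junction. Smg5, an adaptor that recruits decay enzymes, had 3.71 ± 0.34 and 7.61 ± 1.00%. Dcp1a, of the decapping complex, had 2.54 ± 1.23 and 19.1 ± 2.19%, and Ruvbl2, an ATPase that acts with SMG1, 0.81 ± 1.40 and 13.8 ± 4.04%. The summed gene level of Ruvbl2 was only 3.15 ± 0.14 TPM in the first layout. The endonuclease gene Smg6 had 0.17 ± 0.15 and 1.04 ± 0.56%. Of exon junction complex genes, Magohb had 20.1% in replicate 1 and 0 in the others in the first layout, and 15.9 ± 4.21% in the second, while Pnn had 0 and 0.67 ± 0.13%.

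Genes of other RNA-binding proteins had first-layout medians above that of the gene set. In the gene set 23.6, 39.5 and 19.3% of genes were at 10% or more in the first layout, the second and both, with medians of 4.78 and 9.38%. Of the hnRNP genes, which package nascent RNA, 11 of 23 were in the gene set, with 4, 4 and 3 at 10% or more in the first layout, the second and both and medians of 7.99 and 11.3%. Hnrnpd had 36.1 ± 4.74 and 28.7 ± 2.13%, and Hnrnpu, a scaffold protein that binds chromatin RNA, had 21.8 ± 6.90 and 17.9 ± 3.75%. Hnrnpa2b1, the lowest, had 2.18 ± 0.39 and 4.09 ± 0.57% in a gene of 992 ± 30.3 TPM. Of other RNA-binding splicing regulators, 31 of 44 were in the gene set, and 10 (first), 13 (second) and 9 (both) had at least 10%, with medians of 8.13 and 10.5%. Besides Ddx5, Tardbp, which encodes TDP-43, had 40.9, 25.5 and 35.8% in the first layout and 26.2 ± 4.44% in the second. Tardbp-208, which keeps the coding stop and splices downstream of it, had 29.9, 11.3 and 18.8 TPM in the first layout, and Tardbp-228, which skips an exon, 23.1, 5.86 and 21.4 TPM. In the second layout they had means of 12.4 and 14.0 TPM, so neither led in both. Tial1 had 14.7, 31.4 and 37.9% in the first layout and 43.1 ± 5.58% in the second.

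Interferon-stimulated genes were the list with the most abundant members. Of 58 listed, 16 were in the gene set, and 7 had at least 10% in the first layout, 12 in the second and 7 in both. In the gene set 23.6, 39.5 and 19.3% of genes did so. The median share of the 16 was 7.88% in the first layout and 20.4% in the second, beside 4.78 and 9.38% for the gene set. Mx1 and Oas1g were followed by Ifi35, an interferon-induced leucine zipper protein gene, at 50.8, 47.9 and 52.5% in the first layout and 45.8 ± 3.79% in the second. Irf7, the transcription factor of type I interferon induction, was listed at 0 in every library of both layouts although the gene had 328 ± 122 TPM.

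Of the 49 inflammatory and early response genes listed, 3 carry the class, beside 20.5% of all genes with a protein-coding transcript. All 3 were in the gene set, with 0, 2 and 0 at 10% or more in the first layout, the second and both. Cd40, a costimulatory receptor, had 12.0 ± 4.67 and 18.6 ± 1.45%, and Sod2, the mitochondrial superoxide dismutase, 2.93 ± 1.15 and 2.24 ± 0.80%. Klf6 had 0.17 ± 0.18% in the first layout and 20.5 ± 2.26% in the second. Of 45 TLR4 and NF-kB pathway genes, 16 carry the class and 15 were in the set. Of these 15, 0, 2 and 0 were at 10% or more, with medians of 2.31 and 2.75%. In the gene set 23.6, 39.5 and 19.3% of genes were, with medians of 4.78 and 9.38%. Ikbkb, the kinase that targets the NF-kB inhibitor, had 11.5 ± 2.10 and 10.5 ± 1.66%, Rela 13.0, 0 and 14.0% in the first layout and 22.3 ± 2.87% in the second, and Map2k4 8.62 ± 1.19 and 9.20 ± 2.08%. Nfkb2 was listed at 0 in both layouts.

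For the remaining lists, counts at 10% or more are given for the first layout, the second and both, beside the 23.6, 39.5 and 19.3% of the gene set. Of macrophage identity genes, 6 of 36 were in the set and 1, 3 and 1 reached 10%; Itgb2, the integrin chain CD18, had 20.5 ± 4.20 and 28.9 ± 2.44%. Fcgr1, a high-affinity Fc receptor gene, had 4.96 ± 2.86% in the first layout and 45.1 ± 1.38% in the second. Of stress and ATF4 pathway genes 5 of 33 were in the set, with 2, 3 and 2 at 10%, led by Cars, a cysteinyl-tRNA synthetase gene, at 17.2 ± 3.46 and 19.0 ± 3.34%. Of ribosomal protein genes 19 of 81 were in the set, with 2, 3 and 1 at 10%, led by Rps13 at 26.7, 19.5 and 40.6% in the first layout and 16.1 ± 4.74% in the second. Pseudogenes of ribosomal protein genes are numerous, so these are uncertain.

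Of nuclear respiratory chain genes 19 of 75 were in the set, with 0, 6 and 0 at 10% and medians of 1.89 and 5.27%. Ndufa3 and Ndufs6 had the highest first-layout means, 30.0 and 22.9%, but each was at 0 in 1 library there, and their second-layout means were 2.81 and 29.9%. Cox6c had 11.2 ± 1.59 and 26.4 ± 3.17%. Of chromatin regulators 31 of 78 were in the set, with 5, 10 and 3 at 10% and medians of 2.00 and 8.83%. The deacetylase gene Sirt1 had 33.8 ± 4.89 and 11.8 ± 2.75%, the remodeller gene Smarca2 29.2 ± 3.98 and 19.9 ± 0.52%, and Kmt2e 26.9 ± 3.68 and 60.9 ± 1.43%.

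The genes that differed most between layouts at 10 TPM or more were named apart. With a higher second-layout share, Ifngr2, a chain of the interferon gamma receptor, had 5.23 ± 4.58 against 69.6 ± 2.20%. Slc48a1, a haem transporter gene, had 6.08 against 63.9%, the lectin receptor gene Clec4e 1.06 against 54.8%, and Rp2 7.13 against 59.5%. The NMD-class transcripts of Ifngr2, Slc48a1 and Clec4e behind this are models of 534, 404 and 370 bases, but those of Rp2 have 1615 and 1545. With a higher first-layout share, Rnf114, a ubiquitin ligase gene, had 78.9 ± 3.49 against 22.6 ± 13.4%, Mill2 72.9 against 28.3%, Tor3a 65.5 against 29.4%, Sh2b1 35.8 against 1.09%, Sh2b3 77.9 against 44.5% and Gm16867 80.9 against 24%. Among their models, Rnf114-203 has 1985 bases and Mill2-203 has 4453. For each gene named here the libraries of the layouts did not overlap, which follows in part from choosing them by this difference.

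For most genes the share differed by few percentage points between libraries. Low shares leave room only for small SDs, and the median share of the whole gene set was 4.78% in the first layout. Among 1820 genes at 10 TPM or more, the median SD of the share over 3 libraries was 1.47 percentage points in the first layout and 1.5 in the second, and 201 genes had an SD of at least 5 points in the first. Besides Evi2, the largest were Fbxo22 at 41.3, 4.49 and 15.9%, Tmem126a at 34.8, 0 and 19.0%, Sergef at 21.5, 29.2 and 54.6% and Tbc1d19 at 9.13, 11.9 and 38.5%. Galnt1 had 2.31, 39.3 and 16.1%. No library was the highest in all of them. In the second layout Fbxo22 had an SD of 1.69 points and Tbc1d19 of 2.68 points, while that of Evi2 was 35.3.

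NMD-class transcripts with the stop in a retained intron were detected more often than those of the other kinds. Of the 5180 in the gene set, 1938 use another splice site (37.4%), 1567 skip an exon (30.3%), 1054 have the stop in an extra exon (20.3%), 306 keep the coding stop and 81 have the stop in a retained intron (1.56%), with 234 left over. The 81 with a stop in a retained intron, such as Ddx5-208, held 7.80% of NMD-class TPM in the first layout and 3.8% in the second. Of them 63.0% were at 1 TPM or more in all libraries of the first layout and 72.8% in the second, against 22.4 and 42.3% of the whole set. The figures were 17.7 and 34.2% with a skipped exon and 22.3 and 39.3% with another splice site. They were 24.6 and 60.7% with the stop in an extra exon and 29.4 and 37.3% with the coding stop kept. The 81 were also longer, with a median of 2278 bases against 1108.5 in the set, and the part of length was not tested. Transcripts with the stop in an extra exon, such as Tra2a-202, held 19.1% of NMD-class TPM in the first layout and 31.3% in the second. The median length of these exons was 115 bases, and 35.7% were a multiple of 3 in length.

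Transcripts were more often detected the more of their bases lie outside the exons of the gene's protein-coding transcripts. Of the 2123 transcripts with no such base, 14.0% were at 1 TPM or more in all libraries of the first layout and 25.6% in the second. With more than 100 and up to 500 such bases the figures were 26.5 and 57.5%, with up to 1000 they were 53.9 and 62.7%, and with over 1000 they were 61.8 and 72.4%. The order held in every library of both layouts. Length moved with it: among the 1295 longest, 63.1% of transcripts with over 500 outside bases were detected in the first layout, against 30.0% of those with fewer. Across transcripts, Spearman's correlation of outside bases with TPM was 0.277 in the first layout and 0.346 in the second, and that of length with TPM 0.291 and 0.090. Transcripts that hold any retained intron (319) were detected in 52.7 and 58.3% of cases, against 20.4 and 41.2% of the rest. Reads of unspliced RNA from these introns cannot be told apart from reads of the annotated transcript in such tables, and their part in the result was not tested.

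**Figure D5:**
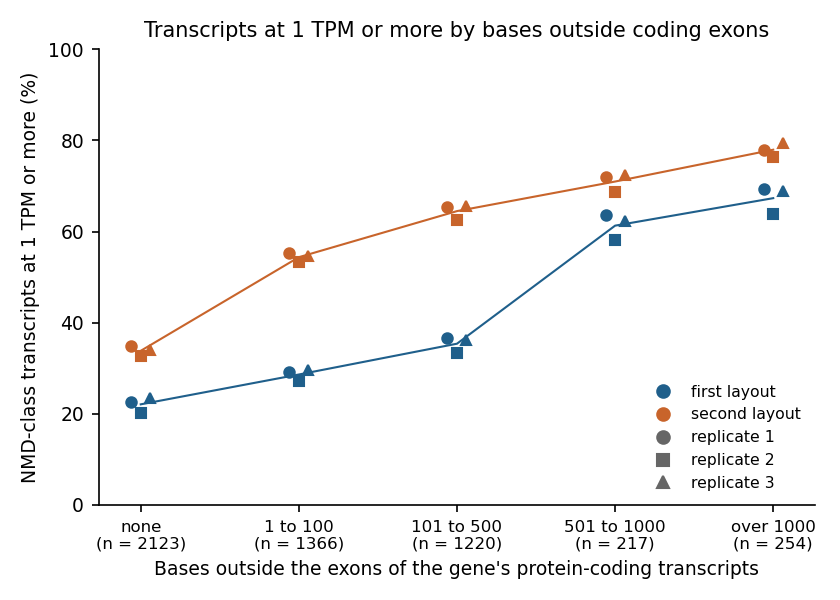
Percent of NMD-class transcripts at 1 TPM or more in a library, by bases outside the exons of the gene's protein-coding transcripts, with 1 point per library, colours for layouts and lines through the means. Both lines are lowest with no such base and highest with over 1000, and the second layout lies above the first in every bin.

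Stop codons were compared by letter. Of 4393 stops that no coding transcript of the gene uses, 58.5% were TGA, 22.3% TAA and 19.2% TAG. Among 4818 stops of coding transcripts in the same genes, 52.1% were TGA, 25.0% TAA and 22.9% TAG. These are properties of the annotation, given with no test. The stop lay at least 50 bases before the last junction in 7056 of the 7091 transcripts (99.5%), which is how the class is defined.

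Library depth and cell identity bear on all of the above. The first layout held 13953780, 24222661 and 16571228 expected counts in replicates 1, 2 and 3, of which 363945, 633809 and 377705 fell on NMD-class transcripts. Of 8 macrophage markers, all reached 1 TPM in every library, with a summed level of 862 to 1061 TPM. Of T and NK (7), B (5), neutrophil (9) and stroma, endothelium or erythroid markers (8), none did so, with summed levels of at most 2.29 TPM and with Klrb1c, Ncr1, Cxcr2, Ly6g, S100a8, S100a9 and Hbb-bs among those at 0. In bulk RNA, fewer cells of a type and less RNA per cell cannot be told apart.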

How the data were processed

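The tables refer to mm10 and GENCODE M21, per the notes deposited beside them. The strand setting and the programs behind both layouts were not given in the sources used here. In the deposited tables, the authors' first transcript layout holds expected counts, TPM, a posterior mean TPM and the bounds of a TPM interval, a signal on the TPM scale, per the file headers. The authors' second layout holds estimated counts and TPM. Values were used as deposited, with no rescaling. Classes were read from the transcript records of the second layout and joined by transcript identifier. Shares were computed per gene and library, then averaged over 3 libraries (SD, n = 3). The gene set needed a summed TPM of at least 1 in all libraries and both layouts. Exon structures and sequences came from the GENCODE M21 annotation and transcripts, whose lengths matched for all 7091 transcripts. Extra exons, skipped exons and retained introns were defined against the protein-coding transcripts of the same gene. Each transcript got the first kind that held of coding stop kept, stop in an extra exon, stop in a retained intron, exon skipped and other splice site. Members, lists and settings were chosen with earlier results of these data known. Named genes were the 15 highest transcripts, the 15 highest shares, all NMD-factor, exon junction, SR and kinase genes of the set, the 3 highest and the lowest of each other list, and the 6 most layout-dependent in each direction and the 6 most variable. A few genes that this rule or a marker list takes are not reported here. Depth limits the precision of low transcripts, and intervals cover estimation error only. Shares and structure kinds were tested on simulated data. Python 3.11.15, pandas 2.3.3, numpy 2.4.6 and matplotlib 3.10.9 were used.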

Additional observations from a re-analysis of the deposited data

How the results depend on the processing

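The pooled share of 4.05% became 5.09% in the second layout, 3.8% with expected counts in place of TPM, 7.73% of NMD-class and protein-coding transcripts alone, 4.25% without genes that overlap another gene and 3.72% without Mx1. The median gene share of 4.78% became 9.38, 2.39 and 10.1% under the first 3 of these, and 7.25% with posterior mean TPM. The 741 of 3137 genes at 10% became 1239 in the second layout, 1128 of 3116 with the 2 classes alone and 258 of 1149 without overlapping genes. The 65 at 50% became 115, 252 and 22 over these same sets, and 43 of 2399 at a minimum of 5 TPM. Without overlapping genes or at a minimum of 5 TPM fewer genes were counted, which by itself lowers these counts. With 1 replicate left out, the pooled share was 3.95 to 4.10%, the median 4.41 to 4.78%, and the counts 819 to 859 at 10% and 75 to 78 at 50%, where fewer libraries had to pass. The cause of the other moves was not tested. Of 14 list medians, 14 were higher in the second layout. Settings with posterior means, without overlapping genes and without Mx1 were chosen after seeing the data. Short, low transcripts carry few counts, and their shares are the least certain.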

Other observations

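The 95 NMD-class transcripts in 85 genes without a protein-coding transcript summed to 140, 114 and 137 TPM in replicates 1, 2 and 3 of the first layout and 146, 118 and 140 TPM in the second. Gm20605-201, chosen after its values were seen, was the most abundant, at 50.1, 34.3 and 49.2 TPM.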
